A study of Homo sapiens with 6 samples.

Results

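The genes described here are 10 members of the actin and contractile programme of serum response factor: the transcription factor SRF, its coactivators MRTFA and MRTFB, and 7 structural genes, ACTA2, TAGLN, TPM1, TPM2, MYL9, CNN1 and VCL. They were taken by symbol from the 61533 gene rows of the count table, and each symbol matched 1 row. RNA was sequenced from MDA-MB-231 cells, a human cell line of triple-negative breast cancer with a mesenchymal-like shape. There were 3 libraries of cells carrying an empty vector (genotype WT in the labels) and 3 of cells carrying shKDM2B, a short hairpin RNA that knocks down KDM2B, which removes methyl groups from histone H3 and recruits a noncanonical Polycomb complex to unmethylated DNA. All cells were grown in DMEM with serum and harvested before confluence. The labels name 1 hairpin group and do not say whether the cells were a clone or a pool, and they call the replicates biological without saying whether these were separate cultures. The spread behind the p-values is thus that between libraries and may be technical.

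SRF binds a short element called the CArG box, CC and GG around a stretch of A and T bases, in the promoters and introns of muscle and cytoskeletal genes. MRTFA and MRTFB are held by monomeric actin; when filaments assemble and monomers run low, they enter the nucleus and act with SRF. ETS-family ternary complex factors compete with them for SRF and direct it to immediate early genes. The structural genes are classical smooth muscle and myofibroblast genes, several of which are also used by migrating tumour cells. Nuclear entry of the MRTF proteins and the phosphorylation of myosin light chains are not seen in transcript counts.

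The promoter of SRF itself shows the element in its plain form, and that of ACTA2 shows it with 1 inner base off, so these 4 boxes are printed, each with 10 bases on either side and the box in capitals. Sequences are from RefSeq on GRCh38.p14, 5′ to 3′ on the strand of the gene. The first SRF box starts 30 bases and the second 10 bases before the outer of the 2 SRF starts in RefSeq. The ACTA2 boxes start 121 and 71 bases before the inner of its 2 RefSeq starts.

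SRF box 1, chr6:43171229-43171258, plus strand: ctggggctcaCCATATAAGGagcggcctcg
SRF box 2, chr6:43171249-43171278, plus strand: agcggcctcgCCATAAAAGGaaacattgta
ACTA2 box 1, chr10:88952875-88952904, minus strand: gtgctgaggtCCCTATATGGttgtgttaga
ACTA2 box 2, chr10:88952825-88952854, minus strand: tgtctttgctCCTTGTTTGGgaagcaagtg

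The search read windows from 250 bases before to 50 bases after each start. The table held 16 windows for 8 members; TAGLN and MYL9 have no entry in it. An exact CArG box (CC, 6 bases that are each A or T, GG; its reverse complement has the same form, so 1 pass covers both strands) stood in 1 of the 8 members, SRF. Over all 27305 genes of the table, 1.60% had one. Allowing 1 inner base to be G or C, 2 of 8 members had a box, against 9.88% of all genes. A match is a description of letters, and its absence from these windows says nothing about binding elsewhere.

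Library totals ran from 10190149 to 15737951 counts. KDM2B, the targeted gene, stood at 57.3, 68.0 and 65.3 CPM (counts scaled to library size after TMM normalization) in the empty vector libraries and at 14.9, 14.5 and 14.6 CPM in shKDM2B, which left 23.1% of its level. In log2 CPM, correlations were 0.990 to 0.994 within groups and 0.955 to 0.959 between them. Mitochondrially encoded genes took 0.0767 to 0.151% of counts in empty vector and 0.196 to 0.476% in shKDM2B, highest in shKDM2B replicate 1, and their part in the results below was not tested. The response was broad: by edgeR's quasi-likelihood test with Benjamini-Hochberg adjustment, 60.9% of 14071 tested genes passed an adjusted p of 0.05, with 30.5% higher and 30.4% lower in shKDM2B, and the groups did not overlap for 65.5%.

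Of the 10 members, 9 had enough counts to be tested. Among these 5 rose, 1 fell and 3 did not pass the threshold, so 6 of 9 were called beside 60.9% of all tested genes. Members with groups that did not overlap numbered 7 of 9, beside 65.5% of all tested genes. No member changed as much as 2-fold, where 7.14% of tested genes rose and 4.85% fell by at least that much. The median log2 fold change (shKDM2B relative to empty vector) of the 9 was 0.43, and that of all tested genes was -0.0067. Of 3 regulators 1 rose and 1 fell, and of 6 tested structural genes 4 rose and 0 fell. Over all tested genes 30.5% rose and 30.4% fell.

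**Figure D1:**
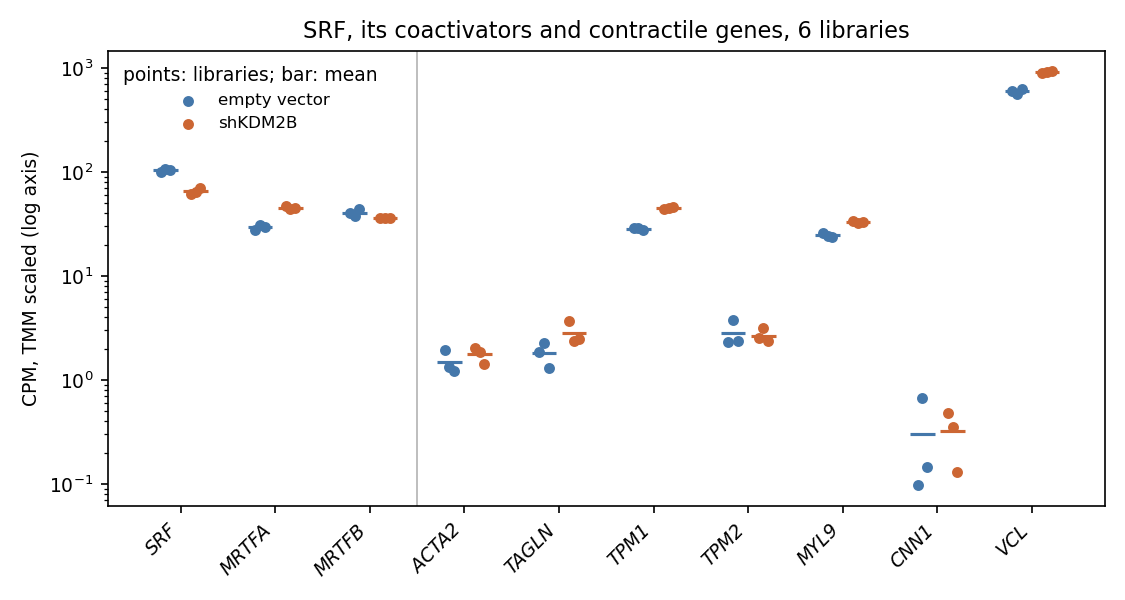
Level of each member in the 6 libraries as TMM-scaled CPM on a log axis, with a bar at the mean of 3 libraries and regulators left of the line. VCL lies near the top in every library, SRF is lower in shKDM2B, and ACTA2, TAGLN, TPM2 and CNN1 lie below 4 CPM in all libraries.

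SRF, the DNA-binding factor of the programme, fell. Its level was 99.4, 107 and 105 CPM in the empty vector libraries and 61.3, 64.5 and 70.3 CPM in shKDM2B. Every knockdown library was below every control library. The means were 104 ± 3.92 and 65.3 ± 4.60 CPM (SD, n = 3 each), a 1.58-fold decrease (log2 fold change -0.66, standard error (SE) 0.06, edgeR adjusted p 3.67e-07). SRF (ENSG00000112658.8) lies on the plus strand of chromosome 6 from 43171299 to 43181507 (GRCh38, GENCODE 29), and no other annotated gene shares exon bases with it.

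MRTFA, the coactivator first known as MKL1, moved the other way. It stood at 27.4, 31.0 and 29.8 CPM in empty vector and at 47.3, 44.0 and 44.6 CPM in shKDM2B, with no overlap between the groups. The increase was 1.54-fold (log2 fold change 0.62, SE 0.07, edgeR adjusted p 4.77e-06). The gene (ENSG00000196588.21) spans 40410281 to 40636702 on chromosome 22, minus strand.

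MRTFB, its paralog, did not pass the threshold. Its values were 40.1, 37.6 and 43.7 CPM in empty vector and 36.3, 35.9 and 36.3 CPM in shKDM2B. All 3 knockdown values were below the lowest control value, by little. The log2 fold change was -0.17 (95% interval -0.32 to -0.0075, edgeR adjusted p 0.0655). MRTFB was called in 2 of 15 alternatives. Without empty vector replicate 2 the log2 fold change was -0.22 and the edgeR adjusted p 0.00621. Without the low-count filter the edgeR adjusted p was 0.0386. MRTFB (ENSG00000186260.17) is on the plus strand of chromosome 16 from 14071321 to 14266773.

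The balance of the coactivators shifted with these changes. There were 1.46, 1.22 and 1.47 MRTFB counts for each MRTFA count in the empty vector libraries and 0.766, 0.815 and 0.815 in shKDM2B. MRTFB gave more counts than MRTFA in every control library and fewer in every knockdown library. The log2 ratio changed by -0.78 (0.46 ± 0.15 to -0.32 ± 0.051, SD, n = 3 each; exact two-sided permutation p 0.10, the smallest that 3 against 3 allows, and 0.15 adjusted over the 3 ratios tested). The genes differ in length, so the ratio itself compares counts and not transcripts. Its change does not depend on length if both groups use the same transcripts, which was not examined.

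**Figure D2:**
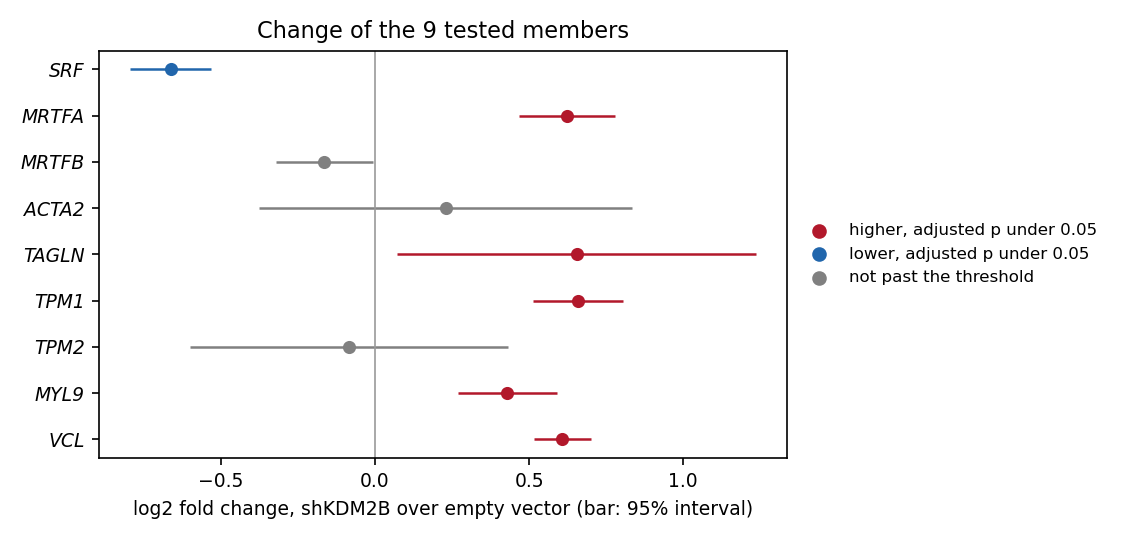
Log2 fold change of the 9 tested members with its 95% interval, coloured by the edgeR call. SRF lies at -0.66, MRTFA, TAGLN, TPM1 and VCL between 0.61 and 0.66 and MYL9 at 0.43, while the intervals of ACTA2 and TPM2 span 0.

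VCL encodes vinculin, which ties actin filaments to talin at focal adhesions and to catenins at cell junctions, and it was the most abundant member. It was measured at 600.5, 568.5 and 627.6 CPM in empty vector and at 904.0, 905.7 and 927.0 CPM in shKDM2B. The groups were far apart relative to their spread. The rise from 598.8 ± 29.6 to 912.2 ± 12.8 CPM was 1.52-fold (log2 fold change 0.61, SE 0.04, edgeR adjusted p 2.78e-08). VCL (ENSG00000035403.18; chromosome 10 from 73995193 to 74121363, plus strand) shares 1109 exon bases with AP3M1 on the opposite strand, and AP3M1 moved the other way (log2 fold change -0.21, edgeR adjusted p 0.0159).

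TPM1, an alpha tropomyosin that lies along actin filaments, rose by a like amount. Its values were 28.9, 29.1 and 27.8 CPM in empty vector and 44.3, 44.9 and 46.0 CPM in shKDM2B. The libraries of each group lay within 2 CPM of one another and the groups did not overlap. The increase was 1.58-fold (log2 fold change 0.66, SE 0.07, edgeR adjusted p 1.29e-06). TPM1 (ENSG00000140416.23; chromosome 15 from 63042632 to 63071915, plus strand) has 34 annotated transcripts, some of muscle and some of nonmuscle type, and gene-level counts do not tell them apart.

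MYL9 encodes the regulatory myosin light chain of smooth muscle and nonmuscle myosin II, whose phosphorylation switches on contraction. It measured 25.7, 24.4 and 23.8 CPM in empty vector and 33.4, 32.5 and 33.4 CPM in shKDM2B. Again no control library reached a knockdown library. The rise was 1.35-fold (log2 fold change 0.43, SE 0.07, edgeR adjusted p 1.84e-04). MYL9 (ENSG00000101335.10) spans 36541484 to 36551447 on the plus strand of chromosome 20.

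TAGLN encodes transgelin (SM22), an actin-bundling protein and a standard readout of SRF activity. It had 19, 24 and 18 counts in the empty vector libraries and 38, 27 and 38 in shKDM2B, or 1.85, 2.29 and 1.30 against 3.69, 2.36 and 2.47 CPM. The closest values of the groups, 2.29 and 2.36 CPM, nearly met. The log2 fold change was 0.65 (SE 0.27, 95% interval 0.072 to 1.24) with an edgeR adjusted p of 0.0497. This call was lost in 9 of 15 alternatives, among them DESeq2 (adjusted p 0.118), limma-voom (0.0501) and leaving out empty vector replicate 1 or 3 or shKDM2B replicate 1 or 3, with log2 fold changes of 0.43 to 0.76 in those 4 fits. TAGLN (ENSG00000149591.17; chromosome 11 from 117199321 to 117204782, plus strand) also shares 446 exon bases with PCSK7 on the opposite strand. PCSK7 held 238 to 432 counts a library and fell (log2 fold change -0.47, edgeR adjusted p 3.97e-04), and whether counting used strand was not given in the sources used here.

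ACTA2, the smooth muscle alpha-actin of contractile cells and myofibroblasts, was near the limit of measurement. It had 20, 14 and 17 counts in empty vector and 21, 21 and 22 in shKDM2B, or 1.94, 1.33 and 1.23 against 2.04, 1.84 and 1.43 CPM. The groups overlapped. The log2 fold change was 0.23, with a 95% interval from -0.38 to 0.83 (edgeR adjusted p 0.503), an interval that includes 0 as well as changes of the size of TPM1 and VCL. ACTA2 (ENSG00000107796.13; chromosome 10 from 88935074 to 88991339, minus strand) shares exon bases on the opposite strand with ACTA2-AS1 (516 bases; 9 to 31 counts a library) and FAS (380 bases; 74 to 129 counts), so its few counts are uncertain to that extent. Its coding sequence is also close to those of the other actins.

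TPM2, the beta tropomyosin of muscle and fibroblasts, was as scarce. It had 24, 40 and 33 counts in empty vector and 26, 36 and 36 in shKDM2B, or 2.33, 3.81 and 2.39 against 2.53, 3.15 and 2.34 CPM. Values of the groups were mixed, with empty vector replicate 2 the highest of the 6. The log2 fold change was -0.09 (95% interval -0.60 to 0.43, edgeR adjusted p 0.777), and it was 0.16 without empty vector replicate 2. For each TPM1 count there were 0.0824, 0.132 and 0.0871 TPM2 counts in empty vector and 0.0581, 0.0711 and 0.0517 in shKDM2B. That ratio was lower in all 3 knockdown libraries, by 0.72 on the log2 scale (exact two-sided permutation p 0.10, adjusted 0.15). TPM2 (ENSG00000198467.16) spans 35681992 to 35690121 on chromosome 9, minus strand.

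CNN1, calponin of differentiated smooth muscle, did not reach the count minimum and was not tested. It had 1, 7 and 2 counts in the empty vector libraries and 5, 4 and 2 in shKDM2B. These are close to 3 counts, the number that a count of 0 allows, which corresponds to 0.195 to 0.292 CPM over the 6 libraries and covers counting error only. CNN1 (ENSG00000130176.8) is on the plus strand of chromosome 19 from 11538717 to 11550323.

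**Figure D3:**
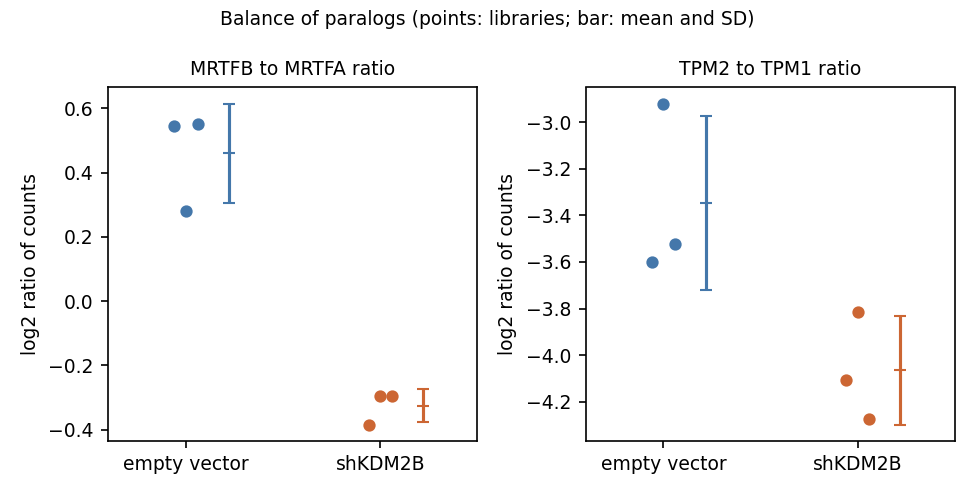
Log2 ratio of counts of MRTFB to MRTFA and of TPM2 to TPM1 in each library, with mean and SD of 3 libraries. Both ratios are lower in all shKDM2B libraries, by 0.78 and 0.72 on average, and the TPM2 values, which rest on 24 to 40 counts, are more scattered.

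Between members, levels are comparable only per length. In CPM per kilobase of annotated exon, empty vector levels were 59.9 ± 2.96 for VCL, 24.7 ± 0.932 for SRF, 8.73 ± 0.336 for MYL9, 4.50 ± 0.275 for MRTFA, 2.44 ± 0.183 for MRTFB and 2.22 ± 0.0551 for TPM1 (SD, n = 3). TPM2 (0.876 ± 0.258), ACTA2 (0.505 ± 0.130), TAGLN (0.463 ± 0.126) and CNN1 (0.105 ± 0.109) followed. The ranges of ACTA2 and TAGLN overlapped, and those of all other neighbours in this order did not. In shKDM2B, TPM1 (3.50 ± 0.0645) stood above MRTFB (2.18 ± 0.0140), and TPM2, TAGLN and ACTA2 could not be ordered beyond their spread. Per length of the longest transcript TPM1 came to 7.23 in empty vector, above MRTFA at 6.52, so its place depends on the length taken. TAGLN was the only called member with a mean below 1 CPM per kilobase.

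Each scarce muscle-type member has a widely expressed paralog, and in these cells those paralogs carried nearly all of the family's counts. Cytoplasmic actins ACTB and ACTG1 made up 99.97 to 99.98% of the counts of 6 actin genes. ACTA2 took 0.0207, 0.0138 and 0.0130% in empty vector and 0.0195, 0.0176 and 0.0129% in shKDM2B. The exact binomial 95% intervals ran from 0.00755 to 0.0320% over all 6 libraries, for counting error only. The groups overlapped, and the log2 ratio of ACTA2 to the sum of ACTB and ACTG1 differed by 0.073 (exact two-sided permutation p 1.0, adjusted 1.0). ACTG1 rose 1.17-fold (log2 fold change 0.23, SE 0.03, edgeR adjusted p 3.93e-05). ACTB rose 1.09-fold (log2 fold change 0.13, SE 0.03, edgeR adjusted p 0.00531), a call lost without the low-count filter or without shKDM2B replicate 1 or 3. Neither the ACTG1 nor the ACTB call held against a 1.2-fold threshold. The actins ACTA1, ACTC1 and ACTG2 were not tested, with at most 12 counts in any library.

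Increases above 2-fold stood among the paralogs of the calponin, transgelin and light chain families. TAGLN2, the transgelin of nonmuscle cells, rose from 243.4, 271.1 and 255.0 CPM to 766.0, 788.9 and 825.5 CPM, 3.09-fold (log2 fold change 1.63, SE 0.05, edgeR adjusted p 8.71e-12). CNN2, a calponin of nonmuscle cells, rose from 207.3, 202.4 and 206.4 CPM to 499.0, 509.3 and 507.6 CPM, 2.46-fold (log2 fold change 1.30, SE 0.04, edgeR adjusted p 1.80e-11). In both genes the lowest knockdown library was more than double the highest control library. CNN3, the acidic calponin, rose 1.19-fold. MYL12A, a regulatory light chain like MYL9, rose from 83.5, 79.1 and 78.5 CPM to 219, 227 and 221 CPM, 2.77-fold (log2 fold change 1.47, SE 0.05, edgeR adjusted p 2.75e-11). Its near-identical neighbour MYL12B rose by 0.32 on the log2 scale, and reads of the pair may have been split or lost in counting. Against the same direction, SMTN, smoothelin, fell 2.04-fold from 181 ± 13.1 to 88.8 ± 2.05 CPM (edgeR adjusted p 3.38e-09) and CALD1, caldesmon, fell 1.40-fold. Of the 5 tested calponin, transgelin and related genes outside the members, 3 rose and 2 fell, beside 30.5% and 30.4% of all tested genes.

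**Figure D4:**
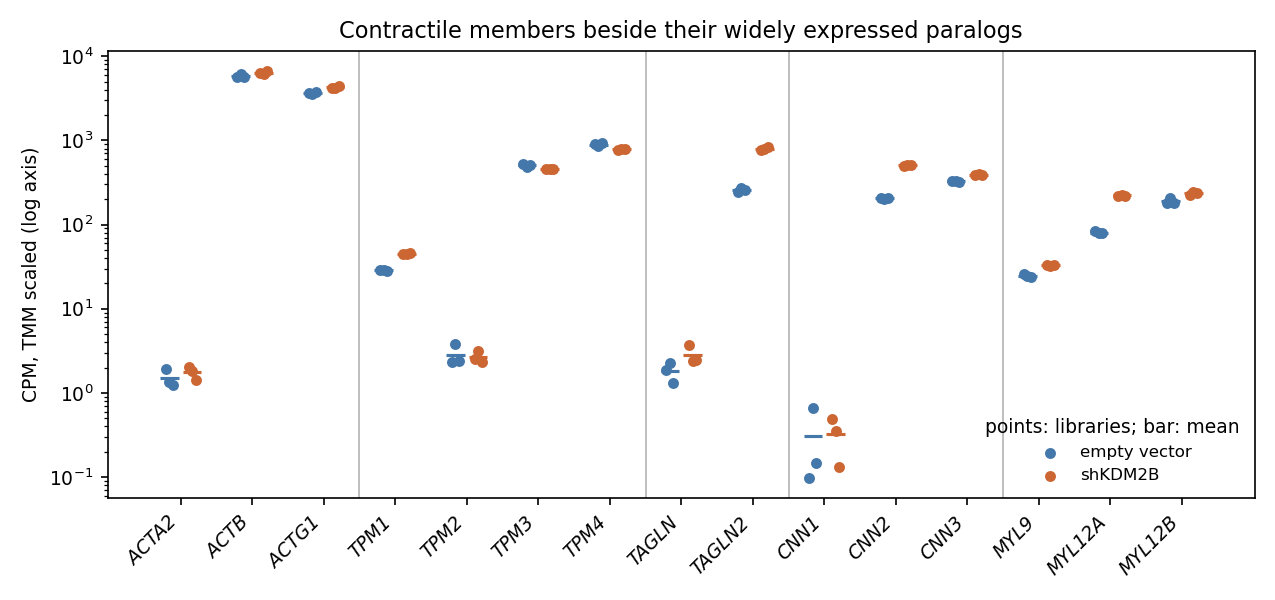
Muscle-type members beside their widely expressed paralogs, as TMM-scaled CPM in each library on a log axis with a bar at the mean; vertical lines part the families. Paralogs of ACTA2, TAGLN and CNN1 lie far above them, and TAGLN2, CNN2 and MYL12A show the widest gaps between shKDM2B and empty vector.

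The remaining tropomyosin genes did not follow TPM1. TPM4 and TPM3, the broadly expressed tropomyosins, fell 1.13-fold and 1.11-fold (log2 fold changes -0.18 and -0.15, edgeR adjusted p 0.00144 and 0.00909). Both calls were lost against a 1.2-fold threshold, and that of TPM3 also without shKDM2B replicate 2. TMOD2, which caps filament ends, had a log2 fold change of -0.46 (adjusted p 0.0296). That call was lost with DESeq2, against a 1.2-fold threshold and without empty vector replicate 3 or shKDM2B replicate 1 or 2. TMOD3 (0.14) and TMOD1 (0.65) did not pass, although TMOD3 did without empty vector replicate 1 (0.19, adjusted p 0.0296). Of the 5 tested genes of this group outside the members 0 rose and 3 fell, beside 30.5% and 30.4% of all tested genes.

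The other chains of myosin II, the motor that MYL9 regulates, were taken with its kinase and phosphatase. Of 11 tested genes 7 rose, 1 fell and 3 did not pass, and the median log2 fold change was 0.32. Over all tested genes 30.5% rose and 30.4% fell, with a median of -0.0067. MYLK, the kinase that phosphorylates MYL9, rose 4.59-fold, from 16.05, 12.8 and 13.8 CPM to 64.9, 65.9 and 64.8 CPM (log2 fold change 2.20, SE 0.08, edgeR adjusted p 5.28e-11). The opposing phosphatase rose as well, in its targeting subunits PPP1R12C (1.51-fold) and PPP1R12A (1.41-fold) and its catalytic subunit PPP1CB (1.23-fold). Heavy chains were split, with MYH9 1.13-fold higher and MYH10 1.18-fold lower (edgeR adjusted p 0.00663 and 0.0114). These heavy chain calls were lost without shKDM2B replicate 3 and without shKDM2B replicate 2, respectively. Both were also lost against a 1.2-fold threshold. MYL6, the essential light chain, had a log2 fold change of 0.11 (edgeR adjusted p 0.466), and it was 0.28 (adjusted p 1.02e-05) without empty vector replicate 2. PPP1R12B (0.27) and MYH11 (0.33) did not pass, although PPP1R12B did without empty vector replicate 2 (0.33, adjusted p 0.0449), and MYH14 had at most 1 count.

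At focal adhesions, where vinculin acts, directions were even: of 18 tested genes other than VCL, 7 rose and 8 fell, with a median of 0.013. The shares over all tested genes were 30.5% and 30.4%. FERMT2 (kindlin-2), which helps talin activate integrins, rose 1.74-fold, and the talins TLN1 and TLN2, which bind vinculin, rose 1.46-fold and 1.32-fold. TNS3 rose 1.27-fold. TNS1, another tensin, fell 2.99-fold from 74.6 ± 6.55 to 25.1 ± 1.68 CPM (edgeR adjusted p 9.36e-10). TGFB1I1 (Hic-5), LPP and TNS2 had log2 fold changes of -0.74, -0.71 and -0.65 and fell as well.

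Other genes listed as SRF cofactors were also divided. MICAL2, an actin-oxidising enzyme that promotes MRTF entry into the nucleus, fell 1.82-fold from 251 ± 15.8 to 137 ± 8.11 CPM (edgeR adjusted p 2.34e-08). ELK4, a ternary complex factor, fell 1.75-fold from 162.5 ± 11.6 to 93.1 ± 0.982 CPM (adjusted p 3.57e-08), and FHL2, a LIM-domain cofactor and SRF target, fell 1.40-fold. ELK3 rose 1.24-fold, while ELK1 (log2 fold change 0.12) and the MRTF inhibitor SCAI (-0.0021) did not pass, with 95% intervals of -0.051 to 0.29 and -0.22 to 0.22. Without empty vector replicate 3, ELK1 passed (0.20, adjusted p 0.0456). GATA6, which works with SRF in smooth muscle, rose 1.56-fold. PHLDB2, which is in the list but whose role as a cofactor was not examined here, also rose 1.56-fold. Of 8 tested genes of the list 3 rose and 3 fell, beside 30.5% and 30.4% of all tested genes. Myocardin (MYOCD), the coactivator of differentiated smooth and cardiac muscle, had at most 1 count in any library, and GATA4, NKX2-5 and ABRA had at most 5.

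Further known targets followed no single direction. Of 25 tested MRTF and SRF targets of the actin cytoskeleton outside the members, 14 rose and 8 fell, with a median of 0.16. Over all tested genes 30.5% rose and 30.4% fell. ANKRD1 rose 1.58-fold, from 262 ± 23.3 to 413 ± 20.4 CPM, and NEXN, nexilin, rose 1.39-fold, besides MYLK and CNN2 above. CORO1C, a coronin, fell 1.40-fold, besides SMTN, TGFB1I1 and FHL2. Among 8 tested serum response genes reached through ternary complex factors, 5 rose and 1 fell, beside 30.5% and 30.4% of all tested genes. JUNB rose 2.38-fold, IER2 1.58-fold and MCL1 1.40-fold, and EGR1 fell by 0.59 on the log2 scale. FOS had overlapping groups and a log2 fold change of 0.37 with an edgeR adjusted p of 0.0486, a call lost in 9 of 15 alternatives, among them leaving out empty vector replicate 2 or 3 or shKDM2B replicate 2 or 3.

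**Figure D5:**
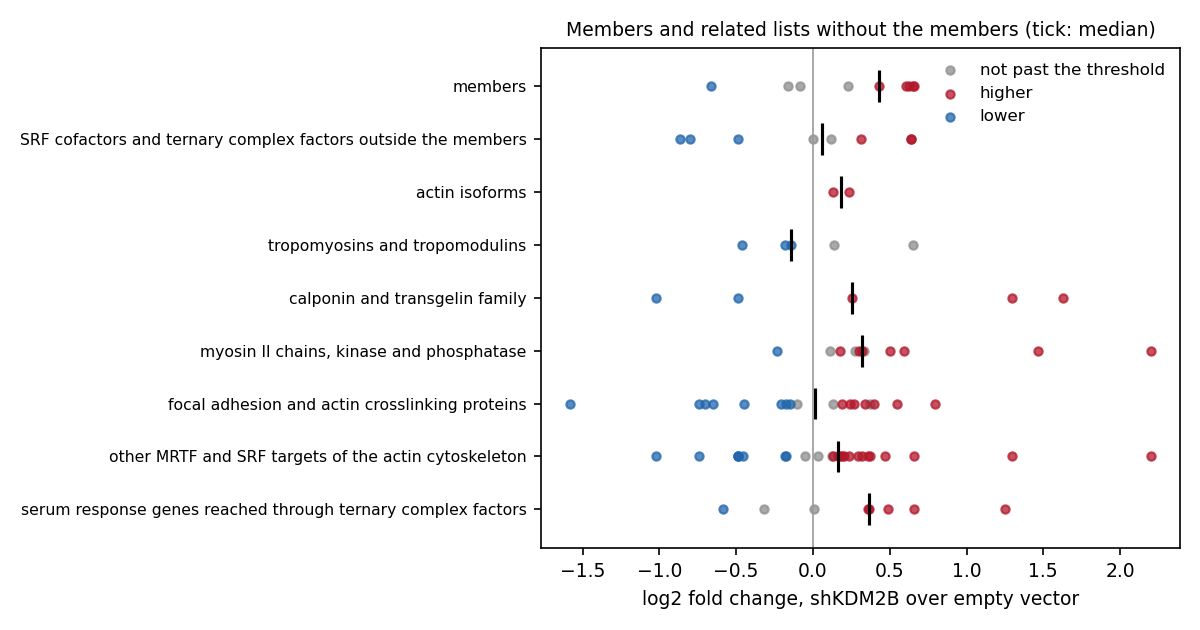
Log2 fold change of each tested member and of each tested gene of the related lists, taken without the members, coloured by the edgeR call, with a tick at the median. The members' median is 0.43; the focal adhesion list is spread on both sides with a median of 0.013, and MYLK lies farthest to the right at 2.20.

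The word CGACAC, which the 3′ UTR of KDM2B holds 2 times in 1019 bases, was counted in the 3′ UTRs of the genes above. Of the annotated 3′ UTRs of 11985 tested genes (longest coding transcript, sense strand), 4.97% hold it. Among the 10 members MYL9, which rose, holds 1 and the other 9 hold 0, SRF with 2317 bases searched among them. It stands in 4 of the 109 tested list genes outside the members, FHL2 and SMTN among them, and all 4 fell. Of the 109, 25 fell and 54 rose. Of all 596 tested genes with the word 300 fell and 139 rose, where 30.4% of all tested genes fell and 30.5% rose. The word was chosen with earlier results of these data known. Its part in these results was not tested.

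Markers of other contractile cells were mostly at or near 0. Of 12 smooth muscle lineage markers, CNN1 among them, 6 had at most 3 counts in every library, and 2 of these (CASQ2 and KCNMB1) had none. The sum of the 12 was 174 to 200 CPM in empty vector and 91.3 to 94.9 CPM in shKDM2B, most of it SMTN. The other tested markers of the list, MYH11 and SYNPO2 (log2 fold changes 0.33 and 0.47), did not pass. Desmin (DES) had at most 2 counts and ACTG2 at most 1. Of 20 striated muscle markers, 15 had at most 3 counts in every library, including MYOD1 and MYOG at 0, and their sum was 25.9 to 33.5 and 31.0 to 31.9 CPM. TTN rose 1.23-fold (adjusted p 0.0354), a call lost in 7 of 15 alternatives, among them leaving out empty vector replicate 2 or 3 or shKDM2B replicate 1 or 2.

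Myoepithelial and basal markers, 10 genes with ACTA2 and CNN1 among them, summed to 20.7 to 23.2 CPM in empty vector and 70.8 to 71.1 CPM in shKDM2B. MYLK, which also stands in that list, held most of this in shKDM2B. KRT17, a basal keratin named here after its values were seen, fell 2.59-fold from 2.42 ± 0.353 to 0.909 ± 0.248 CPM (edgeR adjusted p 7.32e-04), and OXTR (log2 fold change -0.076) did not pass. KRT5 had at most 1 count, KRT14 and TP63 at most 6, and MME 0, and 2 of 10 had at most 3 counts in every library. Fibroblast and pericyte markers summed to 356 to 382 and 618 to 627 CPM over 13 genes, of which 6 had at most 3 counts in every library. Of the 5 tested, 4 rose, where 30.5% of all tested genes rose. The 4 were MCAM (1.44-fold, 487 CPM in shKDM2B), CSPG4 (4.24-fold), COL1A1 (11.5-fold) and PDGFRB (4.62-fold, from a mean of 1.21 to 5.48 CPM). RGS5 did not pass (log2 fold change -0.39, edgeR adjusted p 0.0557). PDGFRB and RGS5 were named here after their values were seen. COL1A2, COL3A1, DCN and LUM had at most 4 counts in any library. All libraries are of the MDA-MB-231 line. In bulk RNA, a change in some cells and a change in all cells cannot be told apart.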

How the data were processed

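The submitters deposited 1 table of raw read counts per gene with 1 column per library. Per the submitters' processing notes, Trim Galore, STAR, featureCounts, DESeq2, edgeR, limma and GRCh38 (hg38) were used; versions, order, annotation release, strand setting and handling of multiply mapped reads were not given in the sources used here. Per the labels' protocols, libraries came from ribosome-depleted total RNA (KAPA RNA HyperPrep). Columns were matched to samples by name, and the sh79 columns were taken as shKDM2B, as the labels name no other hairpin.

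Of the gene rows, 61369 matched a symbol and 58356 a GENCODE 29 gene. Rows passing filterByExpr (count 10, total 15) were scaled by TMM and tested with edgeR 4.0.16 (R 4.3.3; robust quasi-likelihood fit on all 6 libraries, two-sided), with Benjamini-Hochberg adjustment over 14071 genes and a threshold of 0.05. Each SE is the log2 fold change over the root of F. No 2 libraries of a group were alike within sampling noise (chi-square over its degrees of freedom 2.00 to 10.0). Ratios used a prior count of 0.5.

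Alternatives were DESeq2 size factors, upper-quartile scaling, TMM leaving out histone, mitochondrial and small RNA genes, no filter, 1 CPM in 3 libraries, DESeq2 1.42.0, limma-voom (limma 3.58.1), a replicate block, a 1.2-fold threshold and leaving out each library. The scripts were tested on simulated data. The members, the lists (taken without the members) and the word searched in 3′ UTRs were chosen with earlier results of these data known. Named genes are KDM2B, the members and the genes of 5 close lists. Added to these were up to 4 rising and 4 falling genes of each further list with a mean of at least 5 CPM. Overlapping genes, markers at or near 0, and KRT17, OXTR, PDGFRB, RGS5 and SYNPO2 were named for their values outside that rule. One further list of pathway genes is not reported here.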

Additional observations from a re-analysis of the deposited data

How the results depend on the processing

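SRF, MRTFA, TPM1, MYL9 and VCL kept their direction and their call in all 15 alternative fits, SRF at log2 fold changes of -0.72 to -0.62, MRTFA at 0.57 to 0.65, TPM1 at 0.63 to 0.67, MYL9 at 0.40 to 0.45 and VCL at 0.56 to 0.64. ACTA2 and TPM2 were called in 0 of 15. The number of members called was 5 to 7. With a threshold of 1.2-fold, 5458 of 14071 tested genes passed (2797 higher, 2661 lower) instead of 8571. Of the 109 tested pathway genes outside the members, 46 passed instead of 79. At that threshold TAGLN, ACTB, ACTG1, CNN3, MYL12B, TPM3, TPM4, TMOD2, MYH9, MYH10 and PPP1CB were not called. The calls of TLN2, TNS3, NEXN, ELK3, FOS and TTN were lost there as well. TPM2 ran from -0.22 to 0.16 without 1 library, above 0 without empty vector replicate 2 (0.16) or shKDM2B replicate 3 (0.018). SCAI ran from -0.097 to 0.054, above 0 in 4 of these fits, and MYL6 was at -0.013 without empty vector replicate 3. The ACTA2 to cytoplasmic actin ratio ran from -0.054 to 0.28 without 1 library. The cause was not tested. Scaling moved the median of all tested genes by little (-0.0175 to -0.0049). With a replicate block 8479 genes were called, 6 of them members, against 8571 without it. Same-numbered libraries of the groups correlated at 0.12, -0.025 and 0.085 in their deviations, and differently numbered ones at -0.14 to 0.079. With 3 libraries a group these values cannot decide whether equal numbers mark a pairing. With that pairing the MRTFB to MRTFA and TPM2 to TPM1 ratios changed by -0.78 and -0.72 and the actin ratio by 0.073 (exact sign-flip p 0.25, 0.25 and 1.0, where 0.25 is the smallest possible). Depth limits ACTA2, TAGLN, TPM2 and CNN1, with at most 40 counts a library.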

Other observations

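Leiomodins, which nucleate actin filaments in muscle, were too scarce for the low-count filter, but their few counts lay mostly in the knockdown libraries. LMOD2 had 0, 1 and 0 counts in empty vector and 4, 4 and 8 in shKDM2B, and LMOD3 had 1, 1 and 0 against 4, 6 and 5. In the edgeR fit without that filter their adjusted p was 0.00617 and 0.0308. These were the lowest among the genes of the 5 close lists that the filter removed, and are given as a description only. LMOD1, the smooth muscle form, had 0, 2 and 0 counts against 3, 3 and 2 (adjusted p 0.361), and the cardiac actin ACTC1 had 0, 5 and 4 against 7, 5 and 12 (adjusted p 0.133). No fold is given, since most of the empty vector counts are at or below 3.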
